A study of Mus musculus with 18 samples.

Results

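The 9 genes described here encode transcription factors that act when mouse embryonic stem cells (ESCs) leave naive pluripotency for the formative state, or that serve pluripotent cells in general: Otx2, Pou3f1, Pou5f1, Sox2, Foxd3, Zic2, Zic5, Grhl2 and Zfp281. They were taken by name from a list that was drawn up with earlier results of these data known, by a rule that uses none of their measured values, and matched by Ensembl identifier to the table of read counts. All 9 of the 9 were present among 53801 gene entries, and all 9 were among the 18469 genes with enough counts to be tested. Polyadenylated RNA was sequenced in 18 libraries, 6 groups of 3, formed by 2 lines at 3 stages. WT cells were the parental line E14 wt, a feeder-independent mouse ESC line. iEZR_CA cells were derived from E14 ESCs and carry a doxycycline-inducible, phosphomimetic and therefore constitutively active form of ezrin, the protein that ties the plasma membrane to the actin cortex, followed by an internal ribosome entry site and mCherry. Both lines were sampled as ESC (0 h) in 2i+LIF, the naive medium with a MEK inhibitor, a GSK3 inhibitor and leukemia inhibitory factor, and as T24 and T48 after 24 h and 48 h in N2B27 without these factors, on gelatin. Doxycycline was given to iEZR_CA cells about 16 h before exit and is not stated for WT, so the transgene, the drug and the derivation of the line cannot be told apart. The labels do not say whether the 3 replicates of a group were separate cultures, although the study's methods call them independent biological replicates; if they were not, p-values measure technical spread.

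In the blastocyst and in 2i+LIF, naive cells hold Pou5f1 and Sox2 together with a naive-specific set of factors. Within about a day of release, the naive set falls and a new set takes its place. OTX2 and POU3F1 are its best known markers: OTX2 is a homeodomain protein that redirects POU5F1 (OCT4) to new enhancers, and POU3F1 (OCT6) is a POU factor of the early postimplantation epiblast. FOXD3, ZIC2, GRHL2 and ZFP281 occupy enhancers during the same step, GRHL2 mainly at genes of epithelial cells. The comparison of the lines through time asks whether cells with active ezrin make this exchange at the same pace.

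The libraries held 10940752 to 33276622 reads on genes. Ezr, the gene whose product the transgene encodes, was 2.10-fold higher in iEZR_CA than in WT as ESC, 2.70-fold at T24 and 1.62-fold at T48, with no overlap of the groups. The 5 naive genes Nanog, Esrrb, Zfp42, Klf4 and Tfcp2l1 summed to 95105 to 97309 normalized counts per WT ESC library and to 1849.6 to 1925.4 per WT T48 library. In iEZR_CA their sum was 89919 to 90623 as ESC and 9635.5 to 10617 at T48. Normalized counts are read counts divided by a size factor for each library. A log2 fold change is given with its standard error (SE), and a gene is called where the adjusted p of edgeR's quasi-likelihood test over all 18469 genes is under 0.05. These are bulk samples, in which fewer cells of a type and less RNA per cell cannot be told apart.

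RefSeq windows (GRCm38.p6) of 250 bases before to 50 after a transcript start hold the start sites of 6 of the 9 genes: Otx2, Pou5f1, Sox2, Foxd3, Zic5 and Zfp281. They were searched on both strands for the 6 motifs TAATCC (bound by OTX2 and related homeodomains), ATTTGCAT (the octamer of POU factors), ACAAAG (SOX factors), AACCGGTT (GRHL factors), CCCCTCCCC (a ZFP281-type site) and CACGTG (an E-box). The sequences printed are a window of Otx2, which holds the motif of its own product, the window of Foxd3, which holds the E-box, and the window of Zic5, which holds none of the 6. Capitals mark the motif.

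Otx2, chr14:48665060-48665359, minus strand: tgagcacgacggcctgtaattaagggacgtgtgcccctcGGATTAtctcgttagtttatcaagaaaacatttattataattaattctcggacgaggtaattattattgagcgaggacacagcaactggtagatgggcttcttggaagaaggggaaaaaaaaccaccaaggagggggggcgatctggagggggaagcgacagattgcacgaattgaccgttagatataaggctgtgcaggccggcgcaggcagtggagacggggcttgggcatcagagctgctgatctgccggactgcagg

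Foxd3, chr4:99656049-99656348, plus strand: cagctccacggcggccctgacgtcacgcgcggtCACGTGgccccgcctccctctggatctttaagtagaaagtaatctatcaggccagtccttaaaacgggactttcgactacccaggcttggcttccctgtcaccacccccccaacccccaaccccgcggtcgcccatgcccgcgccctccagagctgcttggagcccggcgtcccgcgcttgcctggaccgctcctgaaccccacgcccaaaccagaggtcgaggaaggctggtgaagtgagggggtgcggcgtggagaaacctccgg

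Zic5, chr14:122465609-122465908, minus strand: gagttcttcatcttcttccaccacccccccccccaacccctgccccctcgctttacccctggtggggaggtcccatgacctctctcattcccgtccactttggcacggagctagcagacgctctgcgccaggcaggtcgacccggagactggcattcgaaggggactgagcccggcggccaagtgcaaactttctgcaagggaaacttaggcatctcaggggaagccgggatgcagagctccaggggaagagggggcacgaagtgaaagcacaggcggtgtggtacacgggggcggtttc

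The Otx2 match lies on the opposite strand, so that GGATTA is read, and begins 211 bases before the start site. TAATCC was found in 7.06% of the 32851 windows of all genes, and CACGTG in 7.15%. A window of Pou5f1 also held TAATCC, and the Sox2 window held ACAAAG, which 18.7% of all windows hold. ATTTGCAT (1.74% of windows), AACCGGTT (0.146%) and CCCCTCCCC (6.37%) had no match in the windows of the 6 genes. A match is a run of letters, and binding was not measured here.

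In WT cells the first day of exit raised most of the 9 genes and the second day lowered most of them. From ESC to T24, 8 of the 9 rose and Sox2 fell, whereas 31.8% of all tested genes rose, 33.6% fell and 65.4% were called in either direction. From T24 to T48, 8 of the 9 fell and Pou3f1 rose, whereas 32.9% of all genes fell, 32.8% rose and 65.7% were called. Over the whole 48 h, 7 were higher and 2 lower (Pou5f1 and Sox2), beside 37.1% of all genes higher, 37.4% lower and 74.5% called. With libraries scaled to spike-in RNAs, the WT first day kept 8 higher and 0 lower. The second day had 1 higher and 5 lower (Zic2 -0.24, Zic5 -0.10 and Zfp281 -0.21 were not called). The 48 h had 7 higher and 1 lower, since Pou5f1 (-0.05, edgeR adjusted p = 0.717) was not called. On that scale 8632 of all genes were called in either direction on the WT first day, 8823 on the second and 11960 over 48 h. Without spike-in scaling these numbers were 12082, 12137 and 13767. In iEZR_CA cells, 7 rose on the first day, and Pou5f1 and Sox2 were not called, beside 27.1% of all genes higher, 28.9% lower and 56% called. On the second day 6 rose, Pou5f1 and Sox2 fell and Foxd3 was not called, beside 29.6% of all genes higher, 30% lower and 59.6% called. Over 48 h iEZR_CA cells had the same split as WT, 7 higher and 2 lower, beside 35.2%, 35% and 70.1% of all genes. With spike-in scaling 6 rose on the first day (Foxd3 was not called), and 6 rose and 1 fell on the second (Pou5f1 was not called). Over 48 h on that scale, 7 were higher and 1 lower, with Pou5f1 at -0.00 (edgeR adjusted p = 0.98). Of all genes, spike-in scaling called 6593 on the iEZR_CA first day, 6931 on the second and 10845 over 48 h. Without spike-in scaling these numbers were 10340, 11015 and 12954.

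**Figure D1:**
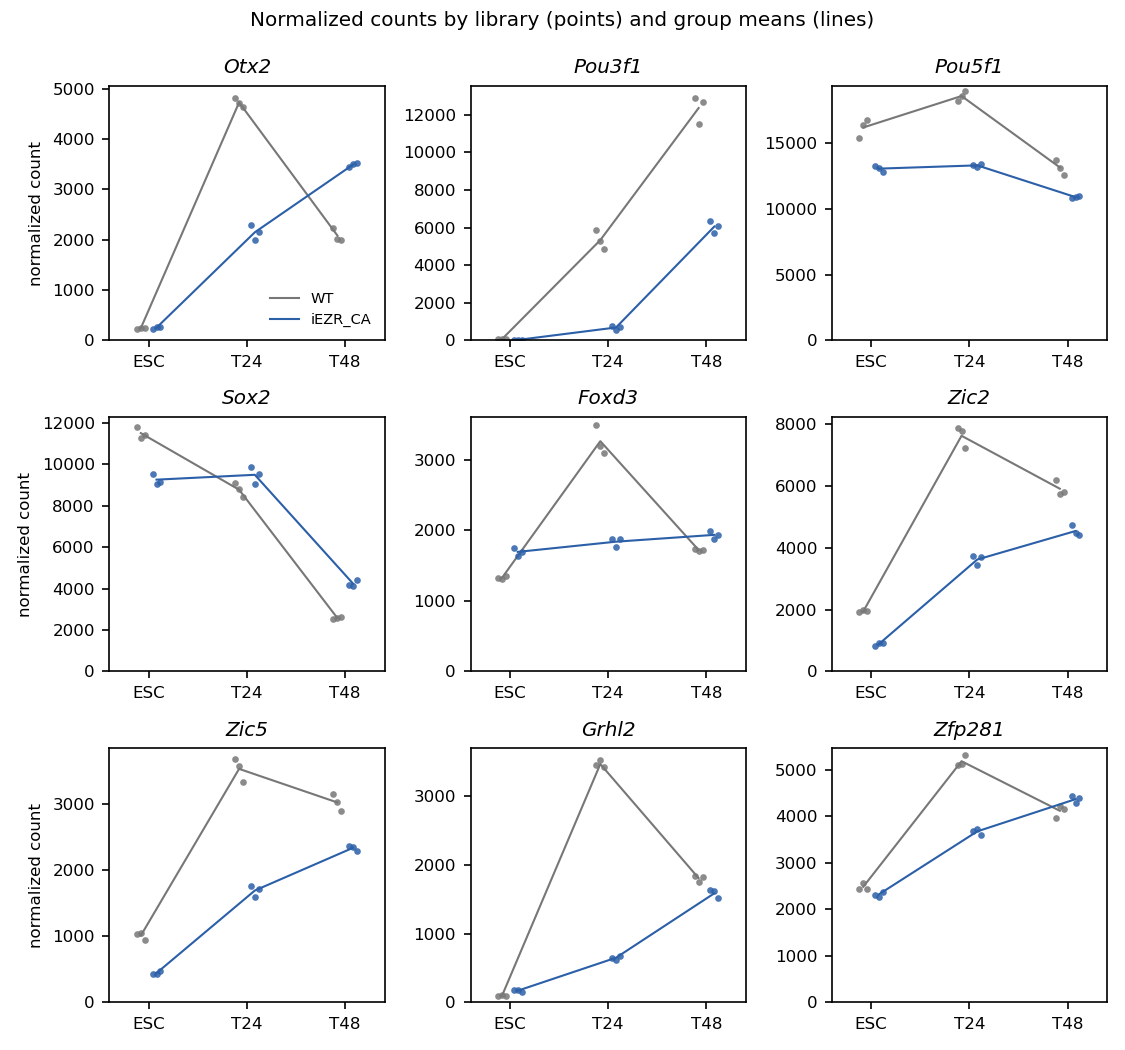
Normalized count of each gene in each of the 18 libraries (points) with group means (lines), WT in gray and iEZR_CA in blue, at ESC, T24 and T48. The WT lines peak at T24 in 7 of the 9 panels; in iEZR_CA only Pou5f1 and Sox2 are below their T24 level at T48.

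Otx2 (ENSMUSG00000021848) lies on chromosome 14 at 48657677 to 48673819, on the minus strand. It had 226, 247 and 256 normalized counts in the WT ESC libraries and 224, 268 and 267 in those of iEZR_CA. These ranges overlapped, with a log2 fold change of 0.04 ± 0.08 (SE; edgeR adjusted p = 0.687). At T24 the WT libraries had 4822.5, 4712 and 4644 and the iEZR_CA libraries 2292, 1997 and 2153. Every iEZR_CA library was below every WT library, by 2.21-fold in the fit (log2 fold change -1.15 ± 0.04, edgeR adjusted p = 1.71e-26). The lines had changed places by T48, with 2226.5, 2023 and 2001 in WT and 3434, 3513 and 3530.1 in iEZR_CA (log2 fold change 0.74 ± 0.04, edgeR adjusted p = 1.21e-19). Otx2 fell in WT on the second day (log2 -1.18) and rose in iEZR_CA (0.71), and the difference between these changes was 1.89 ± 0.06 (edgeR adjusted p = 2.73e-28). The T48 level of iEZR_CA was still below the T24 level of WT, at a log2 fold change of -0.44 (edgeR adjusted p = 4.23e-13).

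Pou3f1 (ENSMUSG00000090125; chromosome 4, 124656807 to 124660655, plus strand, 1 exon) was the gene that differed most. It was low in the naive state, with 85.4, 69.6 and 56.2 normalized counts in WT ESC and 17.7, 26.8 and 33.6 in iEZR_CA ESC. At T24 WT had 5877, 5286 and 4838 and iEZR_CA 790.5, 550.0 and 723. The groups were far apart: iEZR_CA was 7.96-fold lower (log2 fold change -2.99 ± 0.11, edgeR adjusted p = 2.33e-11). By T48 the WT libraries had 12884, 11518 and 12661 and the iEZR_CA libraries 6343, 5723.5 and 6096, a log2 fold change of -1.03 ± 0.09 (edgeR adjusted p = 2.24e-07). It was the only one of the 9 that WT raised on the second day. The iEZR_CA T48 level overlapped the WT T24 level, at a log2 fold change of 0.18 ± 0.09 (edgeR adjusted p = 0.115; called without WT T24 replicate 1, at 0.26). In ESC the log2 fold change was -1.44 ± 0.47 (edgeR adjusted p = 0.019), from 66 to 91 reads per library in WT and 16 to 32 in iEZR_CA. This call was lost without WT ESC replicate 1 (log2 -1.31), iEZR_CA ESC replicate 1 (-1.24) or iEZR_CA ESC replicate 2 (-1.49), with adjusted p between 0.0531 and 0.0687.

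Pou5f1 and Sox2 encode the partners OCT4 and SOX2 that pluripotent cells keep through the transition. Pou5f1 (ENSMUSG00000024406; chromosome 17, 35506018 to 35510772, plus strand) ranged from 15362 to 16741 in WT ESC, 18147 to 18895 at T24 and 12555 to 13720.0 at T48. In iEZR_CA it ranged from 12785 to 13229, then 13127 to 13421, then 10773 to 10936. It was lower in iEZR_CA at all 3 stages by a modest margin, with log2 fold changes of -0.32, -0.48 and -0.27, each with SE 0.03 and called by edgeR. With spike-in scaling only the T24 call was left, and the values in ESC (-0.26, edgeR adjusted p = 0.103) and at T48 (-0.21, adjusted p = 0.18) were not called. The WT rise on the first day was 0.19, against 0.02 in iEZR_CA, and this difference of -0.16 ± 0.04 was called (edgeR adjusted p = 0.000453). It was not called with spike-in scaling (-0.15, adjusted p = 0.712 by edgeR). About 14.1% of its exonic bases overlap the antisense gene Gm19553, and the strand setting of the counting is not given in the sources used here.

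Sox2 (ENSMUSG00000074637; chromosome 3, 34650405 to 34652461, plus strand, 1 exon, inside an intron of the noncoding gene Sox2ot) followed another course. WT ESC libraries had 11825, 11283 and 11428 and iEZR_CA ESC libraries 9555, 9072 and 9164. At T24 the values were 9112, 8804 and 8419 in WT and 9882, 9068 and 9546 in iEZR_CA. The line order had turned: iEZR_CA was lower as ESC (log2 -0.32 ± 0.03, edgeR adjusted p = 2.41e-13), and at T24 the groups overlapped with a small excess in iEZR_CA (0.11 ± 0.03, edgeR adjusted p = 0.0013), which was not called when libraries were scaled to spike-in RNAs (0.18, adjusted p = 0.248). The ESC difference was not called on that scale either (-0.26, edgeR adjusted p = 0.0963), so both calls behind this turn depend on the scaling. Both values kept their direction there, but their SE was 0.12 instead of 0.03. At T48 WT had 2511, 2579 and 2643 and iEZR_CA 4167, 4111 and 4439, a log2 fold change of 0.72 ± 0.03 (edgeR adjusted p = 3.55e-25). Sox2 fell 4.51-fold over 48 h in WT and 2.19-fold in iEZR_CA, and the difference of the changes was 1.04 ± 0.04 on the log2 scale (edgeR adjusted p = 4.79e-26).

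Zic2 and Zic5 encode zinc finger proteins of the ZIC family and lie beside each other on chromosome 14 in opposite directions. Zic2 (ENSMUSG00000061524) is at 122475435 to 122479852 on the plus strand, and Zic5 (ENSMUSG00000041703) at 122456795 to 122465677 on the minus strand. Both were lower in iEZR_CA already in 2i+LIF. Zic2 had 1912, 1973 and 1941 in WT ESC and 838, 907 and 918 in iEZR_CA ESC. Zic5 had 1035, 1049 and 951 in WT and 429.6, 434 and 470.4 in iEZR_CA. Neither pair of groups overlapped, and the log2 fold changes were -1.14 ± 0.05 for Zic2 and -1.20 ± 0.05 for Zic5 (edgeR adjusted p = 2.67e-23 and 1.08e-27). At T24 Zic2 had 7887, 7784 and 7223 in WT and 3722, 3441 and 3709 in iEZR_CA. Zic5 had 3691, 3582 and 3340.2 in WT and 1763, 1597 and 1725 in iEZR_CA, again with no overlap. The gaps of -1.08 and -1.07 on the log2 scale were close to those in ESC, and the difference in first-day change between the lines was 0.06 ± 0.06 for Zic2 and 0.13 ± 0.07 for Zic5 (edgeR adjusted p = 0.465 and 0.138). The Zic5 value was called without WT ESC replicate 3 (0.17) or iEZR_CA T24 replicate 2 (0.18). The gaps shrank to -0.38 ± 0.04 and -0.36 ± 0.04 at T48, where Zic2 was at 5917 ± 236 in WT and 4548 ± 171 in iEZR_CA, and Zic5 at 3029 ± 123 and 2343 ± 37.9 (SD, n = 3). Other tested genes within 5 Mb of Zic2, 25 in number with Zic5 among them, had median line differences of 0.03, 0.23 and 0.14 at the 3 stages, against -1.14, -1.08 and -0.38 for Zic2. For Otx2, elsewhere on the same chromosome, the 53 neighbors had medians of -0.12, -0.25 and -0.09.

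Foxd3 (ENSMUSG00000067261; chromosome 4, 99656299 to 99658622, plus strand, 1 exon) encodes a forkhead factor. It had 1328.5, 1307 and 1348 in WT ESC and 1755, 1635 and 1695 in iEZR_CA ESC. Its WT libraries rose to 3498, 3194 and 3104 at T24 and returned to 1737, 1711 and 1718 at T48. In iEZR_CA it had 1880.4, 1767 and 1872 and then 1992, 1879 and 1939, so the WT pulse at T24 had almost no counterpart. The fitted first-day change was 1.29 ± 0.04 in WT and 0.11 ± 0.04 in iEZR_CA, a difference of -1.18 ± 0.06 (edgeR adjusted p = 2.74e-28). iEZR_CA was above WT as ESC (0.34) and at T48 (0.17) and below it at T24 (-0.84 ± 0.04, edgeR adjusted p = 1.94e-30). The T48 difference was not called with spike-in scaling (0.22, edgeR adjusted p = 0.166). The small rise within iEZR_CA was no longer called without iEZR_CA ESC replicate 2 (0.09, adjusted p = 0.101 by edgeR) or iEZR_CA T24 replicate 3 (0.10, adjusted p = 0.0534).

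Grhl2 (ENSMUSG00000022286; chromosome 15, 37233036 to 37363569, plus strand) encodes a grainyhead factor of epithelial enhancers. It had 89.9, 105 and 97.9 in WT ESC and 182, 182 and 147 in iEZR_CA ESC. All iEZR_CA libraries were above those of WT at this stage (log2 0.81 ± 0.10, edgeR adjusted p = 1.42e-10). At T24 WT had 3446, 3527 and 3424 and iEZR_CA 650.2, 621 and 678. The order was reversed and the gap was 5.34-fold (log2 -2.42 ± 0.04, edgeR adjusted p = 1.25e-52). WT then fell to 1845, 1749.5 and 1827.5 at T48 while iEZR_CA rose to 1629, 1619.6 and 1511, which left a log2 fold change of -0.18 ± 0.04 (edgeR adjusted p = 6.37e-05), not called with spike-in scaling (-0.13, adjusted p = 0.449). Grhl2 had the largest interactions of the 9: -3.22 ± 0.11 on the first day and 2.23 ± 0.06 on the second (edgeR adjusted p = 8.21e-36 and 4.36e-42).

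Zfp281 (ENSMUSG00000041483; chromosome 1, 136624901 to 136630053, plus strand) encodes a zinc finger factor that promotes the passage to later pluripotent states. In ESC it ranged from 2437 to 2569 in WT and 2271 to 2381 in iEZR_CA. The T24 ranges were 5103 to 5312 and 3599.8 to 3732, and the T48 ranges 3964.5 to 4227 and 4284 to 4432. The only line difference of size was at T24, at a log2 fold change of -0.49 ± 0.03 (edgeR adjusted p = 1.86e-23). The differences in ESC (-0.11) and at T48 (0.09) were small, and each call was lost when single libraries were left out: in ESC without WT ESC replicate 2 (-0.08), and at T48 without WT T48 replicate 1 (0.06) or iEZR_CA T48 replicate 1 (0.07). Neither was called with spike-in scaling (-0.05 and 0.14, edgeR adjusted p = 0.84 and 0.395).

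Across the 9 genes, the T24 stage had the widest deficit. In ESC, 2 were higher in iEZR_CA (Foxd3 and Grhl2), 6 were lower and Otx2 was not called, beside 26.4% of all tested genes higher, 28.1% lower and 54.5% called in either direction. At T24, 8 were lower and only Sox2 was higher, whereas 30.1% of all genes were lower, 30.8% higher and 60.9% called. The median log2 fold change of the 9 at T24 was -1.07, beside -0.00 over all 18469 genes. At T48, 4 were higher (Otx2, Sox2, Foxd3 and Zfp281) and 5 lower, beside 31% of all genes higher, 30.1% lower and 61.1% called. The WT and iEZR_CA libraries did not overlap for 8 of the 9 genes in ESC, 8 at T24 and 9 at T48, beside 58%, 63.9% and 64.5% of all genes, which are the shares to read these numbers against. Under the other ways of normalizing, filtering and testing, and with each library left out, no called line difference of the 9 turned direction, and the uncalled value of Otx2 in ESC went to -0.02 without iEZR_CA ESC replicate 2. With spike-in scaling 2 were higher and 3 lower in ESC, 0 and 8 at T24, and 2 and 3 at T48. On that scale 5506, 7129 and 7229 of the 18469 genes were called in either direction at these stages. Measured as a share of the WT gain from ESC to T24, the iEZR_CA gain was 7.47% for Foxd3, 12.6% for Pou3f1, 14.2% for Grhl2, 42.3% for Otx2, 48.1% for Zic2, 49.5% for Zic5 and 50.1% for Zfp281. These gains are differences in counts, so the share also depends on the ESC level. The fold rise of Zic2 was 4.08 in iEZR_CA and 3.93 in WT, and that of Zic5 3.81 and 3.50. For the other genes in this list the fold rise was smaller in iEZR_CA than in WT. Pou5f1, whose iEZR_CA change was not called, had 10.3%, and 5.16% without iEZR_CA ESC replicate 3.

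**Figure D2:**
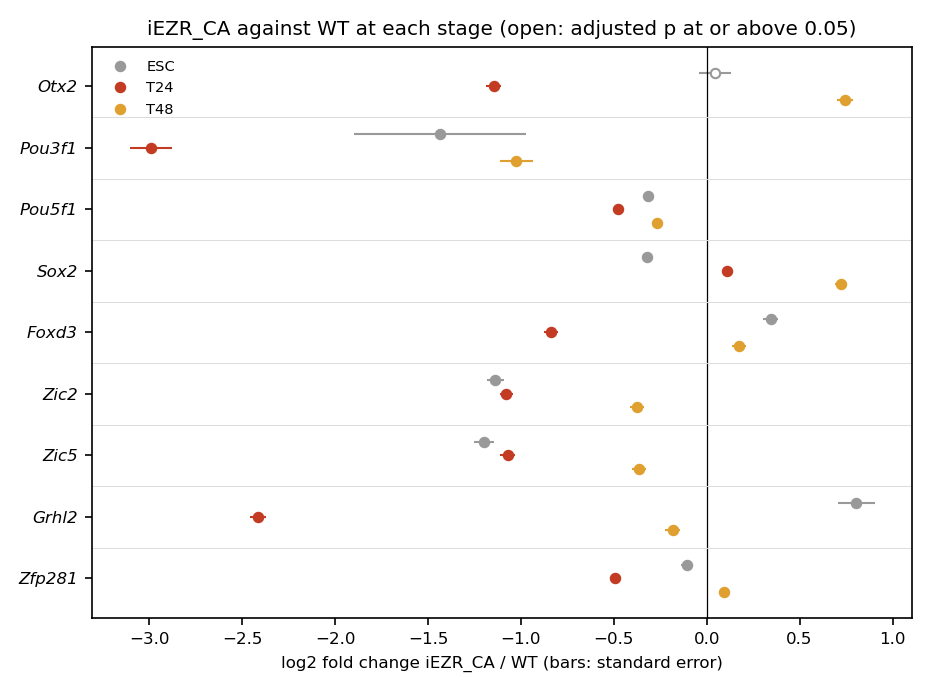
Log2 fold change of iEZR_CA over WT for each gene at ESC (gray), T24 (red) and T48 (yellow), with SE as bars and open points where the adjusted p was 0.05 or above. At T24 the points of 8 genes lie left of 0, from -0.48 for Pou5f1 to -2.99 for Pou3f1, and that of Sox2 lies at 0.11.

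On the second day of exit the change differed between the lines in all 9 genes. The gap between the lines, regardless of direction, was smaller at T48 than at T24 in 8 of the 9, Sox2 being the exception. Its direction turned in Otx2 (-1.15 to 0.74), Foxd3 (-0.84 to 0.17) and Zfp281 (-0.49 to 0.09). With spike-in scaling the T48 difference was not called for Foxd3 (0.22, edgeR adjusted p = 0.166) or Zfp281 (0.14, adjusted p = 0.395), and that of Otx2 was. The share of all genes with a smaller gap at T48 was not counted. The change from T24 to T48 was higher in iEZR_CA than in WT for 9 of the 9 by the interaction test of edgeR, whereas 25.3% of all genes were higher, 20.9% lower and 46.2% called. The differences ran from 0.21 for Pou5f1 to 2.23 for Grhl2, with a median of 0.71. With spike-in scaling 8 of the 9 were called, all higher, and Pou5f1 was not (0.20, adjusted p = 0.501 by edgeR). Of all 18469 genes, 3761 were called in either direction on that scale. In the lines 5 genes moved in opposite directions: Otx2, Zic2, Zic5, Grhl2 and Zfp281 fell in WT and rose in iEZR_CA. With spike-in scaling the WT falls of Zic2 (-0.24), Zic5 (-0.10) and Zfp281 (-0.21) were not called. Pou5f1 and Sox2 fell in both and fell less in iEZR_CA. Pou3f1 rose in both, 2.303-fold in WT and 8.997-fold in iEZR_CA. On the first day the interaction was called for 7 of the 9, 6 of them lower and Sox2 higher. Of all genes 16.9% were lower, 21.5% higher and 38.3% called. With spike-in scaling 4 of the 9 were lower and 0 higher, beside 2416 of all genes called in either direction. Over 48 h the interaction was called for 7, of them 5 higher and Foxd3 and Grhl2 lower. Of all genes 25.7% were higher, 20% lower and 45.8% called. With spike-in scaling 4 of the 9 were higher and 1 lower, beside 3881 of all genes called in either direction. Without WT ESC replicate 1 Pou5f1 was called as well (0.09). Among these, the first-day value of Pou3f1 (-1.56 ± 0.56, edgeR adjusted p = 0.0453) was the weakest call and ranged from -1.39 to -1.76 as single libraries were left out. Its call was lost without WT ESC replicates 2 or 3, WT T24 replicate 2, WT T48 replicates 1 or 3, any iEZR_CA ESC replicate, iEZR_CA T24 replicate 3, or iEZR_CA T48 replicates 1 or 3. The comparisons with a shared group also share its libraries, so the line difference at T24 and both changes through T24 are not independent of each other.

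**Figure D3:**
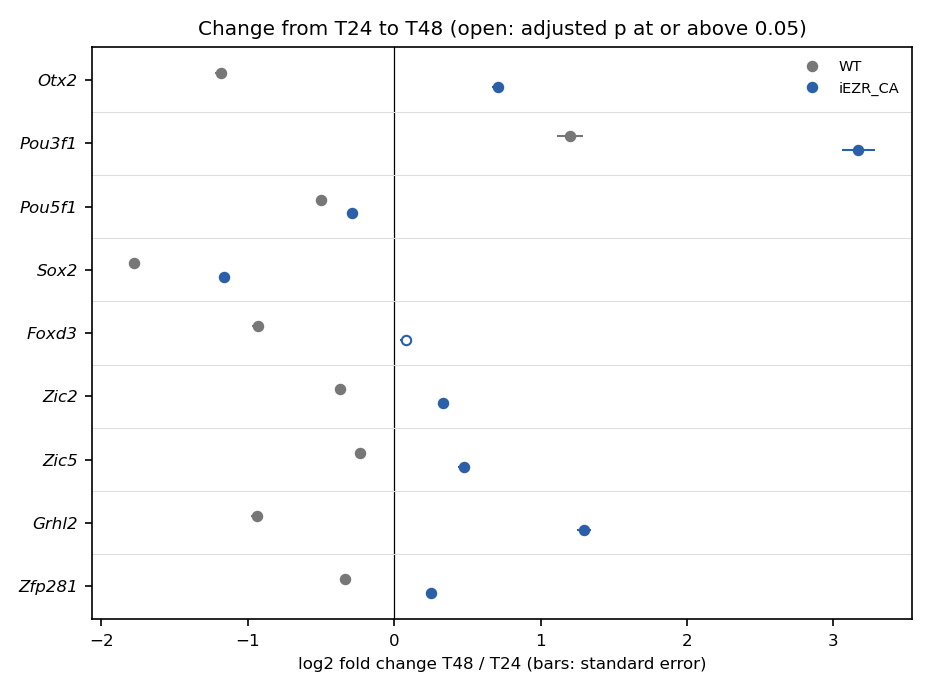
Log2 fold change from T24 to T48 of each gene in WT (gray) and in iEZR_CA (blue), with SE as bars and an open point where the adjusted p was 0.05 or above. In every row the iEZR_CA point lies to the right of the WT point, and for 5 called genes the 2 points lie on opposite sides of 0.

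When iEZR_CA cells at T48 were set against WT cells at T24, 8 of the 9 genes were lower and Pou3f1 was not called, beside 59.1% of all genes called, 29.4% lower and 29.7% higher. The log2 fold changes were -0.24 for Zfp281, -0.44 for Otx2, -0.60 for Zic5, -0.75 for Zic2, -0.76 for Foxd3, -0.77 for Pou5f1, -1.05 for Sox2 and -1.12 for Grhl2. Scaled to the spike-in RNAs, Pou3f1 was called higher in this comparison (log2 0.35, edgeR adjusted p = 0.0149). Otx2 (-0.25) and Zfp281 (-0.07) were not called on that scale. Of all genes, spike-in scaling called 7507 in this comparison, against 10917 without it.

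Levels of different genes were compared as normalized counts per kb of exon. Pou5f1 was highest of the 9 in each of the 6 groups. Sox2 was second in 5 of them, and in WT T48 it stood 4th, at 1253 ± 32.03 per kb (SD, n = 3), behind Pou5f1 at 5839 ± 259, Pou3f1 at 3209.7 ± 190.4 and Zic2 at 2054.5 ± 81.8. In iEZR_CA T48 Sox2 was at 2061 ± 85.3, Zic2 at 1579 ± 59.3 and Pou3f1 at 1573 ± 81.1 per kb, and the last 2 overlapped. Foxd3 and Pou3f1 in WT T24, and Foxd3 and Otx2 in iEZR_CA T48, were the other neighbors in the order whose libraries overlapped. The lowest place was held by Grhl2 in 5 groups and by Pou3f1 in iEZR_CA ESC. These lengths are the union of annotated exons, and part of the order depends on that. With the longest transcript as length, Pou3f1 (18.3 ± 3.80) was also below Grhl2 (19.7 ± 1.51) in WT ESC. Otx2 was at 1823 ± 34.8 in WT T24, above Foxd3 (1405 ± 89.0) and Pou3f1 (1386 ± 135). In iEZR_CA T48 Otx2 (1347 ± 19.7) was above Foxd3 (833 ± 24.4), and Zic2 (1864 ± 70.0) above Pou3f1 (1573 ± 81.1).

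Ratios of 2 genes within a library do not depend on how libraries are scaled. Their size does depend on the gene lengths, here the union of annotated exons, which are the same in all libraries. With the longest transcript as length, Pou5f1 in WT ESC was at 11861 ± 523 per kb instead of 7186 ± 317, and Sox2 stayed at 5597 ± 136. The percentages are therefore to be compared between groups and not read as absolute shares. Sox2 per kb was 78.03% ± 5.29 of Pou5f1 per kb in WT ESC and 77.7% ± 1.68 in iEZR_CA ESC (SD, n = 3). At T24 it was 51.8% ± 3.09 in WT but 78.2% ± 2.902 in iEZR_CA, and at T48 it was 21.5% ± 1.502 and 42.6% ± 1.598. The lines thus overlapped in ESC and stood apart at T24 and T48. The ratio of Pou3f1 to Pou5f1 went from 0.256% ± 0.0647 to 16.8% ± 1.99 and 55.03% ± 3.78 in WT, and from 0.117% ± 0.0377 to 3.02% ± 0.524 and 32.5% ± 1.86 in iEZR_CA. Otx2 to Pou5f1 was 13.6% ± 0.536 at T24 and 8.45% ± 0.213 at T48 in WT, against 8.61% ± 0.543 and 17.1% ± 0.117 in iEZR_CA. By contrast, Zic5 to Zic2 stayed between 27.1% and 31.9% in all 18 libraries, while Zic2 itself ranged from 838.2 to 7887 normalized counts. With 3 libraries against 3, an exact permutation test of such a ratio cannot give a two-sided p below 0.1, so these are given as values.

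**Figure D4:**
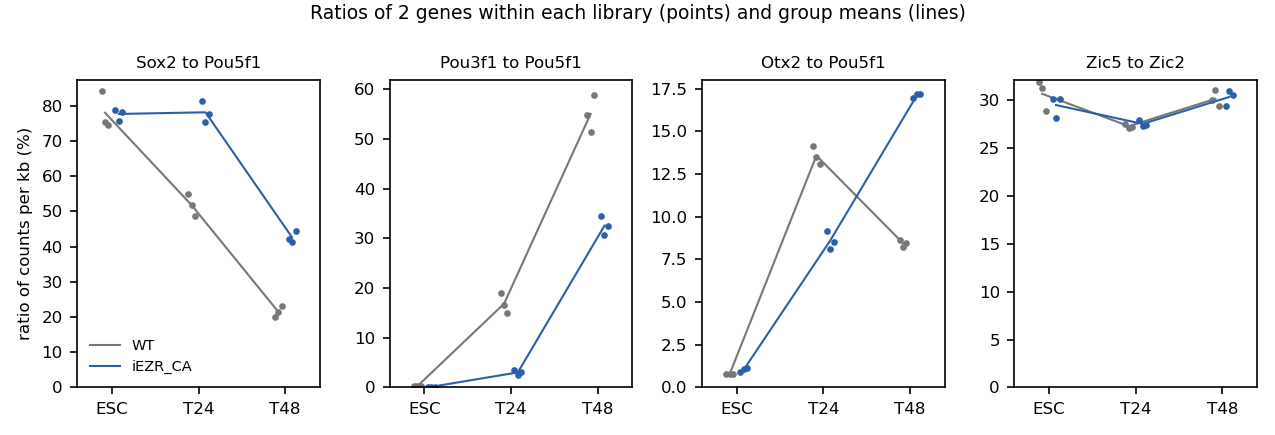
Ratio of counts per kb of 2 genes within each library (points, percent) with group means (lines), WT in gray and iEZR_CA in blue. Sox2 to Pou5f1 separates the lines at T24 and T48, Pou3f1 to Pou5f1 is lower in iEZR_CA at T24 and T48, Otx2 to Pou5f1 crosses between T24 and T48, and Zic5 to Zic2 stays near 30%.

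The genes whose levels followed each factor most closely over the 18 libraries, among 12800 genes, were found by Pearson's r of log2(normalized count + 1). For Zic2 the closest was Zic5 (r = 0.997), then 2610035F20Rik, a noncoding gene in the interval between the 2, and Phc1. Dnmt3a, which encodes a de novo DNA methyltransferase, was closest to Grhl2 (r = 0.990), before Chst15 and Atl2. Otx2 was followed by Zfp532 (0.995), Arrdc3 and Mkrn1, and Pou3f1 by Shroom4 (0.997), Optn and Zfp467. Slc38a2 (0.995), Mkrn1 and Ctbp2 were closest to Zfp281, and Aspscr1 (0.994), Cep55 and Myof to Sox2. The closest genes to Pou5f1 were Incenp (0.969), Gm13212 and Fiz1, and those to Foxd3 were Ube2d3 (0.947), Csrnp1 and Tle4. Each r runs over 6 groups of 3 libraries of 1 experiment and is a description.

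Other genes of the formative state were lower at T24 as well. Of a list of 18 such genes, 16 were lower in iEZR_CA at T24, Etv4 was higher and Hes6 was not called, with a median log2 fold change of -1.26, beside 30.1% of all genes lower and 30.8% higher. In ESC 11 were lower and 5 higher (median -0.46; 28.1% and 26.4% of all genes), and at T48 again 11 and 5 (median -0.44; 30.1% and 31%). Sall2, a zinc finger factor, was at 2663 ± 58.8 in WT T24 and 241 ± 35.7 in iEZR_CA T24 (SD, n = 3; log2 -3.48). Lef1, a nuclear partner of beta-catenin, was at 1928 ± 26.05 and 188 ± 17.8 (-3.38). Fgf5, a growth factor of the postimplantation epiblast, was at 1049.6 ± 8.73 and 122 ± 11.1 (-3.13). All 3 were called by edgeR at T24. By T48 Fgf5 in iEZR_CA (1336 ± 34.7) was level with WT (1225 ± 127; log2 0.12, edgeR adjusted p = 0.0602), whereas Sall2 was still at 1007 ± 65.4 against 3959 ± 108 (-1.96). Dnmt3a, Sox11 and Tcf15 were lower at T24 by -1.89, -1.75 and -1.75 on the log2 scale. Some of these gaps were present in ESC: Sall2 was at 296 ± 16.8 in WT and 78.2 ± 11.5 in iEZR_CA, and Tcf15 at 187 ± 17.0 and 52.9 ± 0.796. Dnmt3a went the other way in ESC (1230 ± 71.6 and 1880 ± 64.1). By the first-day interaction 9 of the 18 were lower, 1 higher and 8 not called (median -0.37). Of all genes 16.9% were lower and 21.5% higher by that test.

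**Figure D5:**
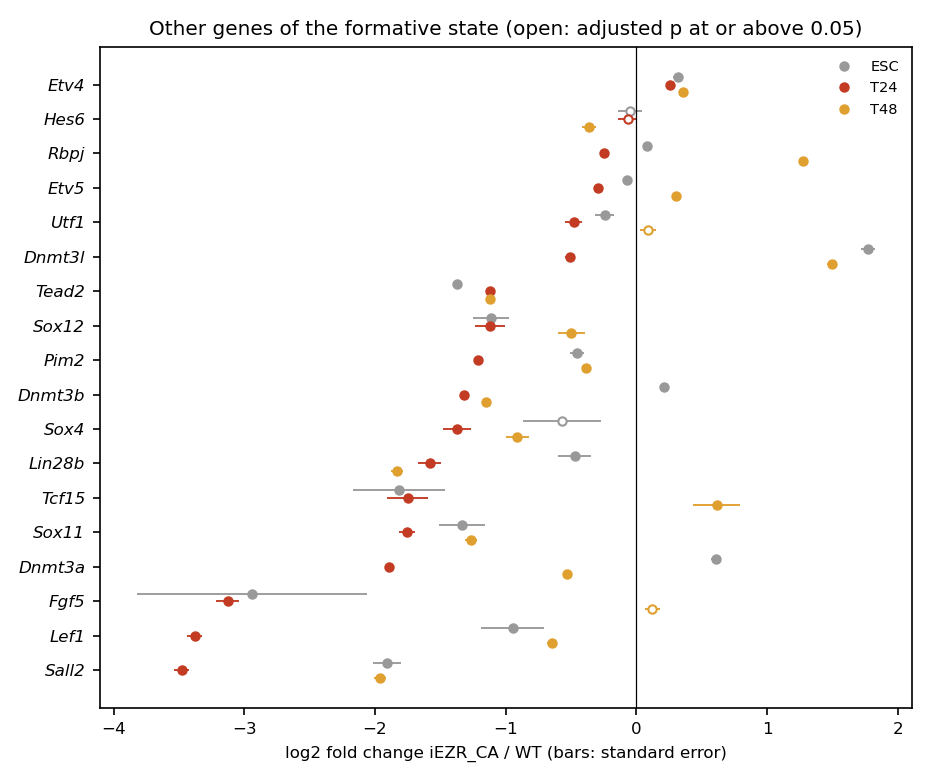
Log2 fold change of iEZR_CA over WT of 18 other genes of the formative state at ESC (gray), T24 (red) and T48 (yellow), with SE as bars and open points where the adjusted p was 0.05 or above, ordered by the T24 value. At T24 the called points of 16 genes lie left of 0, down to -3.48 for Sall2.

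The close relatives of the 9 factors did not share one direction. Of 20 paralogues 16 were tested, and at T24 5 were higher and 7 lower in iEZR_CA (median -0.03), beside 30.8% and 30.1% of all genes. In ESC 2 were higher and 10 lower (median -0.61; 26.4% and 28.1% of all genes), and at T48 4 and 6 (median -0.27; 31% and 30.1%). Pou2f2, a POU factor best known in lymphocytes, was at 127 ± 5.23 in WT T24 and 10.02 ± 2.29 in iEZR_CA T24 (-3.69). The SOX genes Sox1 and Sox3, which mark the neural plate, were lower by -1.27 and -0.85 at T24, where Sox2 was at 0.11. Grhl3 was higher, at 766 ± 35.4 against 348 ± 29.4 (1.16), while Grhl2 was lower. Pou2f3 (0.92) and Zfp148 (0.55) were higher too, and these 6 paralogues were called by edgeR.

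A list of 12 genes of epithelial cells, a program in which GRHL2 acts, was counted beside it. At T24 7 were lower in iEZR_CA and 2 higher (median -0.35), beside 30.1% and 30.8% of all genes. At T48 10 were lower and 0 higher (median -0.93; Cldn4 and Spint1 were not called), beside 30.1% and 31%. Epcam was at 4195 ± 115 in WT T24 and 1420.0 ± 54.9 in iEZR_CA T24 (-1.57), Cldn3 was lower by -1.32, Ovol2 by -0.89, Rab25 by -0.62 and Esrp1 by -0.48, and Spint1 was higher (0.61), all called by edgeR. In ESC, where Grhl2 itself was higher in iEZR_CA, 3 were higher and 4 lower (median -0.20; 26.4% and 28.1% of all genes). Esrp1, a splicing regulator of epithelial cells, rose 6.93 on the log2 scale in WT on the first day and 6.74 in iEZR_CA, while Grhl2 rose 5.12 and 1.90.

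Markers of other cell types were counted in the same libraries. The 12 early neural genes summed to 1661.4 to 1781.6 normalized counts per WT T24 library and 2134.7 to 2232.4 in iEZR_CA T24, and to 3433.2 to 3502.8 and 1499.5 to 1516.4 at T48. At T24 3 of the 8 tested were higher in iEZR_CA and 2 lower, and at T48 0 and 5, and Neurog1, Hes5, Pax3 and Olig2 had 2 reads or fewer per library at T24. Of all genes 30.8% were higher and 30.1% lower at T24, and 31% and 30.1% at T48. The counts in this paragraph are to be read against these shares. The 8 mesendoderm genes summed to 154.4 to 182.9 in WT T24 and 176.7 to 217.6 in iEZR_CA T24, with 2 of the 6 tested higher and Mesp1 and Cer1 at 2 reads or fewer per library. The 12 primitive endoderm genes summed to 190.8 to 216.0 in WT T24 and 445.1 to 478.6 in iEZR_CA T24, with 2 of the 10 tested higher, 1 lower and Ttr at 0 reads in all libraries. Dab2 made up this difference, and the sums of the other 11 genes overlapped, at 158 to 174 in WT T24 and 150.4 to 166 in iEZR_CA T24. The 6 fibroblast genes summed to 61.8 to 82.0 and 99.8 to 121.0, with Postn at 0 reads in both groups. At T48 they summed to 402.6 to 447.4 in WT and 83.9 to 96.2 in iEZR_CA, with all 4 tested lower. The mesendoderm genes at T48 summed to 153.0 to 175.9 and 275.4 to 308.2, with 2 higher and 0 lower. For primitive endoderm the T48 sums were 381 to 427.2 and 288.6 to 310.8, with 2 higher and 5 lower. The part of these markers in the differences of the 9 factors was not tested.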

How the data were processed

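The authors trimmed paired-end reads (Trim Galore 0.6.5), aligned them to mouse GRCm38/mm10 (GSNAP) and counted them per Ensembl gene with HTSeq, and they deposited raw counts for 18 libraries. The strand setting is not given in the sources used here. Reads in no gene entry (21.3% to 24.3%) and 92 spike-in sequences (0.575% to 0.884%) were left out of library sizes. The counts were fitted with edgeR 4.0.16 (R 4.3.3; robust quasi-likelihood, TMM, filterByExpr, 6 group means, 12 residual degrees of freedom), with Benjamini-Hochberg adjustment over 18469 genes. Normalized counts used DESeq2 1.42.0 size factors. Standard errors are the absolute log2 fold change divided by the square root of F. Coordinates and exon lengths came from GENCODE for GRCm38, which held 53706 of the 53801 identifiers. The scripts were tested on simulated data. The common biological coefficient of variation, which is the spread beyond counting noise, was 2.98%. Replicates were compared by chi-square, and no pair agreed within sampling noise.

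The 9 factors and the other lists were chosen with earlier results of these data known. Of a list, at most 6 genes are named, those with the largest T24 line difference among those called whose normalized count averaged 50 or more. Etv4, Hes6, Cldn4, Gata4, Gata6, Sox17, Amn, Hnf4a and markers at or near 0 reads were named outside this rule, after their values were seen. Replicate numbers follow the order of deposition. For each factor, the 3 genes with the highest r are named. Alternatives were DESeq2, its size factors in edgeR, spike-in scaling, other filters, only the groups compared, leaving out each library, the longest transcript as length, and a 2 Mb window for neighbors.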

Additional observations from a re-analysis of the deposited data

Results flagged for a closer look

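The listed values are tests of a difference between the lines in change through time (interaction, log2 scale, edgeR). On the first day of exit the change in iEZR_CA differed from that in WT by -3.22 for Grhl2, -1.56 for Pou3f1, -1.19 for Otx2, -1.18 for Foxd3, -0.39 for Zfp281, -0.16 for Pou5f1 and 0.43 for Sox2. On the second day it differed by 2.23 for Grhl2, 1.97 for Pou3f1, 1.89 for Otx2, 1.01 for Foxd3, 0.71 for Zic5, 0.70 for Zic2, 0.61 for Sox2, 0.59 for Zfp281 and 0.21 for Pou5f1. Over 48 h it differed by 1.04 for Sox2, 0.84 for Zic5, 0.76 for Zic2, 0.70 for Otx2, 0.20 for Zfp281, -0.17 for Foxd3 and -0.99 for Grhl2. The 3 sets share libraries. The over-48-h value of Foxd3 was not called without a filter on low counts (-0.13, adjusted p = 0.179 by edgeR).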

How the results depend on the processing

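The 117 values of the 9 genes (13 comparisons each) were recomputed under 24 alternatives. Of the 2808 results, 2754 kept their direction and side of the threshold, 46 lost their call, 7 gained one, 0 called values changed sign, and 1 uncalled value did (Otx2 in ESC, -0.02 without iEZR_CA ESC replicate 2). DESeq2 and its size factors changed none of the 117. Spike-in scaling lost 24 calls and gained 1, and it left 5 of the 9 called between the lines in ESC, 5 at T48 and 4 in the first-day interaction. For the 24 lost calls the SE was 0.12 to 0.18 on that scale, against 0.03 to 0.06 without it. It also called 4 of the 12 epithelial genes and 1 of the 6 fibroblast genes in ESC, and DESeq2 called 1 mesendoderm gene at T48. Spike-in scaling moved the median change of all genes by 0.14 and 0.13 on the first and second day in WT and 0.27 over 48 h, by 0.15, 0.10 and 0.25 in iEZR_CA, and by 0.17 between iEZR_CA T48 and WT T24. Over all genes it called 5506, 7129 and 7229 between the lines at the 3 stages, against 10058, 11253 and 11282, and 2416, 3761 and 3881 in the interactions, against 7081, 8526 and 8452. The cause was not tested. The first-day interaction of Pou3f1 was not called without a filter (-1.53, adjusted p = 0.0902 by edgeR) or with only the groups compared (-1.56, adjusted p = 0.0731). The second-day change of Foxd3 in iEZR_CA was called with at least 10 counts in every library (0.09, adjusted p = 0.0422 by edgeR) and with only the groups compared (0.08, adjusted p = 0.0346). Leaving out each library left 2083 of 2106 results on their side of the threshold, lost 19 calls and gained 4. No paired analysis was possible because the labels give wells and no replicate numbers, so that the numbers used here, given in order of deposition, only name libraries. Low naive-state counts limit Pou3f1 in ESC.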

Other observations

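Among genes outside the formative program, single lineage genes differed between the lines at T24 against the direction of the 9 factors. Dab2, an endocytic adaptor found in primitive endoderm, was at 303 ± 24.5 normalized counts in iEZR_CA T24 and 33.5 ± 8.47 in WT T24 (SD, n = 3; log2 fold change 3.29, edgeR adjusted p = 9.47e-31), and it was already at 631 ± 19.01 against 45.2 ± 11.1 in ESC. Of the other 9 genes of that lineage tested, Amn was higher at T24 (24.3 ± 3.81 against 6.60 ± 0.406, log2 1.85), Hnf4a was lower (-0.78) and 7 were not called by edgeR, among them the transcription factors Gata4 (-0.30), Gata6 (-0.11) and Sox17 (-0.68). Of all genes 30.8% were higher and 30.1% lower at T24. The neural cytoskeletal genes Nes (1.09) and Tubb3 (0.88) were higher in iEZR_CA at T24 and lower at T48 (-1.13 and -1.53), while Neurod1 was lower at both (-1.06 and -2.14), and Lhx2 was 0.62 at T24. Gsc, a mesendoderm homeodomain gene, fell from 365 ± 25.3 in WT ESC to 3.95 ± 2.82 at T24, and from 556 ± 26.2 to 15.1 ± 3.22 in iEZR_CA. Pdgfrb, a receptor of mesenchymal cells, was 1.49 on the log2 scale at T24.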
